A study of Mus musculus with 8 samples.

Results

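The 10 genes described here mark the stromal progenitors of adipose tissue: Pdgfra, Pdgfrb, Dpp4, Pi16, Cd34, Ly6a, Ly6c1, Cd248, Clec3b and Gsn. They were chosen by name, with no measured value in the rule but with earlier results of these data known. The gene lists set beside them below were also chosen with those results known. The markers are 10 of the 31053 genes in the count table, of which 17367 had any count. Each of the 10 had at least 1 count in some library. The comparison asked whether these genes, as a readout of stromal content, were lower in the knockout together with the genes of the extracellular matrix (ECM).

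Adipose tissue holds, besides adipocytes, a stroma of fibroblast-like cells that can divide, lay down matrix and become new adipocytes. Most of them carry the platelet-derived growth factor (PDGF) receptor alpha on their surface. In white fat these cells are usually divided into early DPP4+ PI16+ interstitial progenitors, committed preadipocytes and a CD142+ population that restrains adipocyte formation. The same cells are the main source of fibrillar collagen in the tissue.

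Bulk RNA-seq was measured in brown adipose tissue (BAT) of C57BL6/J mice labelled 8 weeks old, with 4 WT and 4 Cd36KO libraries. CD36 is a cell surface receptor for lipids and debris. No label says more of the genotype than Cd36KO. The study's text describes a germline knockout and also mice with floxed CD36 and a Csf1r-driven Cre, which acts in macrophages and other myeloid cells, and it assigns its BAT transcriptome to the latter. WT mice carry neither allele as far as the labels say, and no Cre control was labelled. For this transcriptome the study gives the same age as the labels, while its methods name a later age at sacrifice for the Cre mice. In 1 Cd36KO library the count column has no replicate number, and it is called the unnumbered Cd36KO library. The study counts as many mice per group as there are libraries, and no label ties a library to a mouse.

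The labels name the cell type as stromal vascular fraction, which is the tissue after its adipocytes have been removed. The counts go against that name. The adipocyte genes Cfd and Fabp4 had at least 5538 normalized counts in every library, and Ucp1 and Cidea, which define brown adipocytes, at least 4235. A normalized count is the count divided by the library's DESeq2 size factor. The libraries are therefore called BAT here. In such bulk samples fewer cells of a type and less RNA per cell cannot be told apart.

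Total counts ranged from 2679785 to 4097953 per library, and 13368 to 14698 genes were detected. Cd36 had 2412 to 3505 normalized counts in WT and 1926 to 2384 in Cd36KO, so the groups were separate and the transcript stayed abundant, with a DESeq2 adjusted p of 0.0602. The study states that all mice were male, but Xist had 821 to 1433 normalized counts, and the Y-linked Uty, Eif2s3y and Kdm5d had no read in any library, with 3 counts of Ddx3y in WT replicate 1. This holds for both groups alike.

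Of the 10 markers, 1 fell in Cd36KO and 0 rose. The gene that fell was Gsn, which codes for gelsolin, an actin-severing protein that is abundant in fibroblasts but also made by adipocytes and muscle. A gene counts as having fallen or risen where its DESeq2 adjusted p, over all genes tested, was under 0.05. By that rule 1.53% of the 9617 genes with an adjusted p fell and 1.42% rose, so 1 of 9 markers with an adjusted p is a count too small to be read as a change of the list. The edgeR quasi-likelihood test called 0 of 9 markers (0.102% of 9793 genes fell by it), with 1 marker, Gsn, at an unadjusted p under 0.05 in each tool. In 0 of the 10 markers were all 4 Cd36KO libraries below all 4 WT libraries, against 3.93% of all genes with an adjusted p, or above them, against 4.84%. The median log2 fold change of Cd36KO over WT was 0.05 over the 10 markers, 0.04 without Dpp4, which had at most 3 reads in a library, and -0.01 over all genes with an adjusted p.

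**Figure D1:**
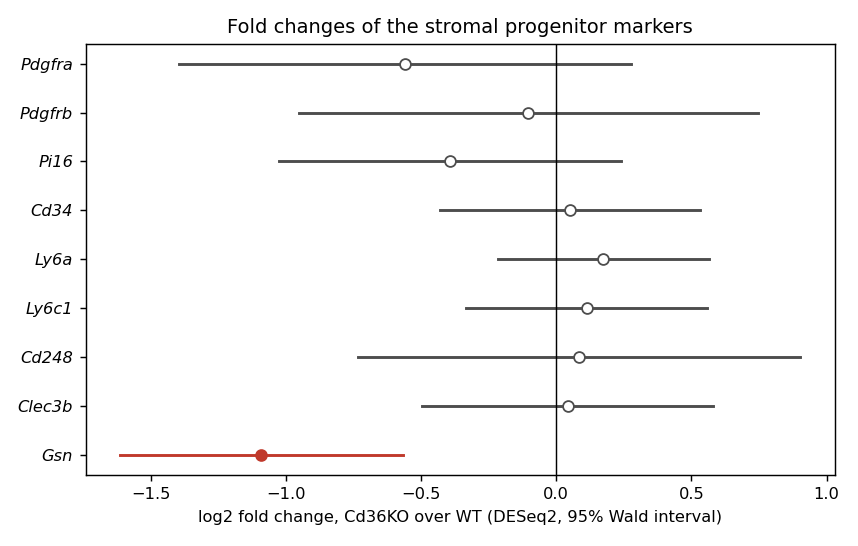
Log2 fold change of Cd36KO over WT for the 9 markers with more than 3 reads in every library (horizontal axis), with the 95% Wald interval from DESeq2 as a line. Gsn, the filled point, lies at -1.09 with an interval from -1.61 to -0.57, and the intervals of the other 8 all include 0.

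The PDGF receptors were taken first. Pdgfra (ENSMUSG00000029231, chromosome 5, 75152292 to 75198215, plus strand, GRCm38) is the surface receptor by which adipose progenitors are usually recognised. Its normalized counts were 45.1, 51.0, 42.3 and 20.8 in WT replicates 1 to 4, and 17.8 in the unnumbered Cd36KO library and 46.0, 31.7 and 13.7 in replicates 2 to 4. WT replicate 4 lay among the low Cd36KO libraries and Cd36KO replicate 2 among the high WT libraries, so the groups overlapped. The means were 39.8 ± 13.2 and 27.3 ± 14.7 (n = 4 each, SD). Its log2 fold change was -0.56 ± 0.43 (standard error, SE), with a 95% interval from -1.40 to 0.28 and a DESeq2 adjusted p of 0.573 (exact two-sided permutation p = 0.229, where the design allows no less than 0.0286). That interval holds both 0 and a 2-fold loss, so at 16 to 60 reads per library either was within the error of this gene. The log2 fold change was -0.93 without Cd36KO replicate 2 and -0.32 without Cd36KO replicate 4, and -1.04 and -1.06 with the level of skeletal muscle or of white fat genes as a covariate. It stayed below 0 in all 16 alternative fits, and the smallest adjusted p among them was 0.501, by edgeR. Pdgfra had no adjusted p with either covariate, or in the fits without WT replicate 2 or 4 or Cd36KO replicate 2, 3 or 4. The threshold was not applied in those fits.

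Pdgfrb (ENSMUSG00000024620, chromosome 18, 61045150 to 61085061, plus strand) codes for the beta receptor, which progenitors share with pericytes and smooth muscle. WT replicate 1 had 73.1 normalized counts, and the other WT libraries had 19.5, 27.1 and 20.8. The Cd36KO libraries had 30.1 in the unnumbered library and 33.4, 31.7 and 35.8 in replicates 2 to 4. All Cd36KO libraries thus lay above 3 of the WT libraries and below the remaining one. The log2 fold change was -0.10 ± 0.43 (SE; DESeq2 adjusted p = 0.948), and without WT replicate 1 it was 0.56 with an adjusted p of 0.592. That library was also the highest of the 8 for the pericyte and smooth muscle genes and for the skeletal muscle genes, whose levels are given below, and their part in its Pdgfrb count was not tested.

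Their ligands were a list of 4 genes, Pdgfa, Pdgfb, Pdgfc and Pdgfd, of which 3 had an adjusted p and 0 fell or rose in DESeq2 and 0 were called by edgeR, with 0 at an unadjusted p under 0.05 in either. Pdgfb, made mainly by endothelium, had 12.9 to 67.0 normalized counts in WT and 27.6 to 56.4 in Cd36KO, a log2 fold change of 0.14. Pdgfa had 27.2 to 52.4 and 26.7 to 38.0, a log2 fold change of -0.22. Both pairs of ranges overlapped.

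The markers of the interstitial progenitors were Dpp4, Pi16, Cd248 and Clec3b. Dpp4 (ENSMUSG00000035000, chromosome 2, 62330073 to 62412231, minus strand), the surface peptidase that gives this population its name, was at the edge of detection. It had 1, 2, 1 and 0 reads in WT replicates 1 to 4, and 1 in the unnumbered Cd36KO library and 1, 0 and 3 in replicates 2 to 4. These counts were at or under the floor of 3 counts in all 8 libraries, so no fold change is given and no difference of Dpp4 was detectable at this depth.

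Pi16 (ENSMUSG00000024011, chromosome 17, 29317680 to 29330593, plus strand), a secreted peptidase inhibitor of these cells, was better covered. WT replicates 1 to 4 had 46.9, 104, 70.6 and 44.5 normalized counts, and Cd36KO libraries had 61.3 in the unnumbered library and 39.1, 49.1 and 53.4 in replicates 2 to 4. WT replicates 2 and 3 were the highest of the 8, while WT replicates 1 and 4 lay inside the Cd36KO range. The log2 fold change was -0.39 ± 0.32 (SE; 95% interval from -1.03 to 0.24; DESeq2 adjusted p = 0.608), and without WT replicate 2, the highest library, it was -0.08.

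Cd248 (ENSMUSG00000056481, chromosome 19, 5068078 to 5070682, plus strand), or endosialin, is a transmembrane glycoprotein of stromal cells. It had 13.5, 28.9, 21.2 and 11.9 normalized counts in WT and 23.4, 18.4, 19.4 and 19.1 in Cd36KO, in the same order of libraries. The lowest and the highest value were both WT libraries. From 12 to 34 reads per library, the log2 fold change was 0.08 ± 0.42 (SE; DESeq2 adjusted p = 0.958).

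Clec3b (ENSMUSG00000025784, chromosome 9, 123150946 to 123157432, plus strand) codes for tetranectin, a secreted lectin that binds plasminogen. Its normalized counts were 56.9, 143, 109 and 116 in WT and 114, 127, 103 and 94.6 in Cd36KO. WT replicate 1 stood below the other 7 libraries, and the Cd36KO libraries lay within the range of the other WT libraries but for replicates 3 and 4, which were just under it. Its log2 fold change was 0.04 ± 0.27 (SE; 95% interval from -0.50 to 0.58; DESeq2 adjusted p = 0.967). Clec3b and Pdgfrb ran opposite to each other across the 8 libraries, with a Pearson r of -0.91, the most extreme of the 45 pairs of markers. WT replicate 1 was the lowest library for Clec3b and the highest for Pdgfrb, and r was not computed without it.

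The surface antigens used to sort these cells came next. Cd34 (ENSMUSG00000016494, chromosome 1, 194938819 to 194961279, plus strand) codes for a sialomucin that is on adipose progenitors and also on endothelium. Normalized counts were 156, 138, 145 and 86.1 in WT and 157, 145, 147 and 96.9 in Cd36KO. Replicate 4 was the lowest library of both groups, and the other 6 lay between 138 and 157. The log2 fold change was 0.05 ± 0.25 (SE; 95% interval from -0.43 to 0.53; DESeq2 adjusted p = 0.956).

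Ly6a (ENSMUSG00000075602, chromosome 15, 74994877 to 74998031, minus strand) codes for SCA-1, which marks mouse progenitors in fat and also endothelial cells. WT libraries had 230, 189, 172 and 171 normalized counts, and Cd36KO libraries 169, 214, 269 and 207. The lowest and the highest value were both Cd36KO libraries, the unnumbered one and replicate 3. Ly6a had a log2 fold change of 0.17 ± 0.20 (SE; 95% interval from -0.22 to 0.57; DESeq2 adjusted p = 0.753).

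Ly6c1 (ENSMUSG00000079018, chromosome 15, 75044018 to 75048830, minus strand) codes for a surface protein of the same family, found on interstitial progenitors and on capillary endothelium. It had 359, 311, 322 and 212 normalized counts in WT and 290, 238, 345 and 427 in Cd36KO. Here replicate 4 was the lowest WT library and the highest Cd36KO library. Ly6c1 had a log2 fold change of 0.11 ± 0.23 (SE; 95% interval from -0.33 to 0.56; DESeq2 adjusted p = 0.876). The 95% intervals of Cd34, Ly6a, Ly6c1 and Clec3b all lay above -1, the log2 fold change of a 2-fold loss. So did those of Pdgfrb, from -0.95, and Cd248, from -0.73, while those of Pdgfra, Pi16 and Gsn reached below it.

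Ly6c1 has a near copy, Ly6c2, which is a marker of inflammatory monocytes, so the assignment of reads matters for this gene. The coding sequences of the first annotated transcripts, 393 bases each, were 97.7% identical and differed at 9 positions, with capitals below marking the bases that differ. A read of 75 bases, the length sequenced, can be told apart between these sequences only where it covers such a position. Of 319 coding windows of that length, 114 were identical between the genes. The first pair shown is, among the windows that lie within 1 exon, the one with the most differences, at chr15:75045471-75045545 for Ly6c1 and chr15:75108612-75108686 for Ly6c2 (both minus strand, GRCm38, coding exon).
Ly6c1: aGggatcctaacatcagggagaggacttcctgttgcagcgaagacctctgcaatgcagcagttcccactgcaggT
Ly6c2: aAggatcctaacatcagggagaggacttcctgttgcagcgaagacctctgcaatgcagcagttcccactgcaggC
In contrast, the window at chr15:75047395-75047469 in Ly6c1 and chr15:75110553-75110627 in Ly6c2 has the same 75 bases in both.
Ly6c1 and Ly6c2: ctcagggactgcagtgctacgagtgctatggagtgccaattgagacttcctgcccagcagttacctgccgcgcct
Over all annotated transcripts, 19.0% of the windows of Ly6c1 also occurred in Ly6a or Ly6c2, 6.33% of those of Ly6a in Ly6c1 or Ly6i, and 0.0744% of those of Pi16 in unrelated genes. The windows of the other 7 markers occurred in no other gene on the same strand. Ly6c2 itself had 0 to 5.34 normalized counts per library. How reads with several placements were treated is not stated for these files, so reads of the shared stretches of Ly6c1 and Ly6a cannot be assigned with certainty. That limit is separate from the standard errors, which were among the smallest of the markers for both genes.

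**Figure D2:**
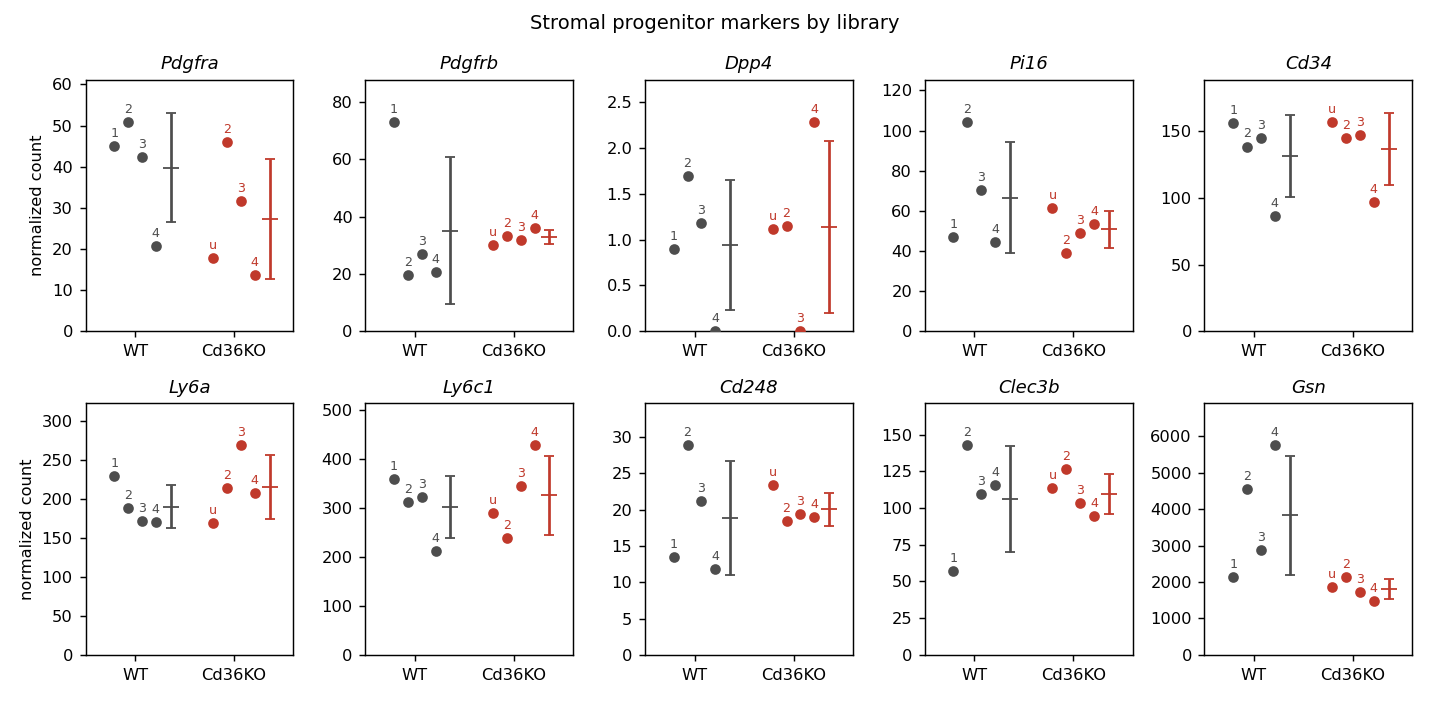
Normalized count of each marker (vertical axes, each from 0) in the 4 WT and 4 Cd36KO libraries, shown as points with the replicate number, u for the unnumbered library, and with the mean and SD as a bar at the right of each group. The groups overlap in all 10 panels, in the Gsn panel only because WT replicate 1, at 2129, is just under Cd36KO replicate 2, at 2141.

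Gsn (ENSMUSG00000026879, chromosome 2, 35256380 to 35307892, plus strand) was the exception. WT replicates 1 to 4 had 2129, 4564, 2893 and 5754 normalized counts, and the Cd36KO libraries had 1857 in the unnumbered library and 2141, 1734 and 1473 in replicates 2 to 4. The Cd36KO libraries lay close together and under WT replicates 2, 3 and 4, while WT replicate 1 was lower than 1 of them. The means were 3835 ± 1634 and 1802 ± 277 (n = 4 each, SD), so the Cd36KO mean was 53.0% below that of WT. The log2 fold change was -1.09 with an SE of 0.27 and a DESeq2 adjusted p of 0.00647, from 1667 to 5817 reads per library. With edgeR the log2 fold change was -1.10 with an adjusted p of 0.113, and the exact two-sided permutation p was 0.0571, so only the first of these tests passed its threshold. It passed in all 8 fits that left out a library, with log2 fold changes from -1.29 to -0.83.

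WT replicate 1 was the lowest WT library both for Gsn and for the genes of white fat. The level of a list in a library is the mean over its genes of log2(normalized count + 1), and for the 12 white fat genes it was 4.04, 5.76, 5.99 and 6.22 in WT replicates 1 to 4. It was 4.08 in the unnumbered Cd36KO library and 3.77, 3.61 and 3.88 in replicates 2 to 4. WT replicate 1 thus had a white fat level inside the Cd36KO range, and WT replicate 4, with the most Gsn, had the highest, while replicates 2 and 3 were in the opposite order for the 2 measures. With this level as a covariate the Gsn log2 fold change was -0.15 with a DESeq2 adjusted p of 0.811, but in that fit the level itself separates most WT from Cd36KO libraries. The part of white fat in the Gsn count was not tested apart from genotype. The level of 8 general adipocyte genes was likewise lowest in WT replicate 1 and highest in WT replicate 4. It was 11.86, 12.61, 12.81 and 13.02 in WT replicates 1 to 4 and 12.18 to 12.46 in Cd36KO. Of the white fat list, 6 of 8 genes with an adjusted p fell and 0 rose in DESeq2, beside 1.53% and 1.42% of all such genes. EdgeR called 4 of this list. Hoxc10 and Tcf21, 2 of its 12 genes, were at 0 in all libraries. Its summed normalized counts were 830 to 5655 in WT and 721 to 1156 in Cd36KO. Hoxc8, a homeobox gene of posterior fat depots, had 81.2, 150, 303 and 287 normalized counts in WT and 7.16 to 42.3 in Cd36KO. Lep, which codes for leptin, had 35.2 to 150 and 11.5 to 28.2, and Aldh1a1, a retinaldehyde dehydrogenase, had 56.5 to 107 and 12.3 to 34.5. For these 3 genes the groups were separate, whereas the ranges overlapped for Nnat, with 377 to 3105 and 245 to 403, and for Sncg, with 20.8 to 360.1 and 17.4 to 56.8.

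**Figure D3:**
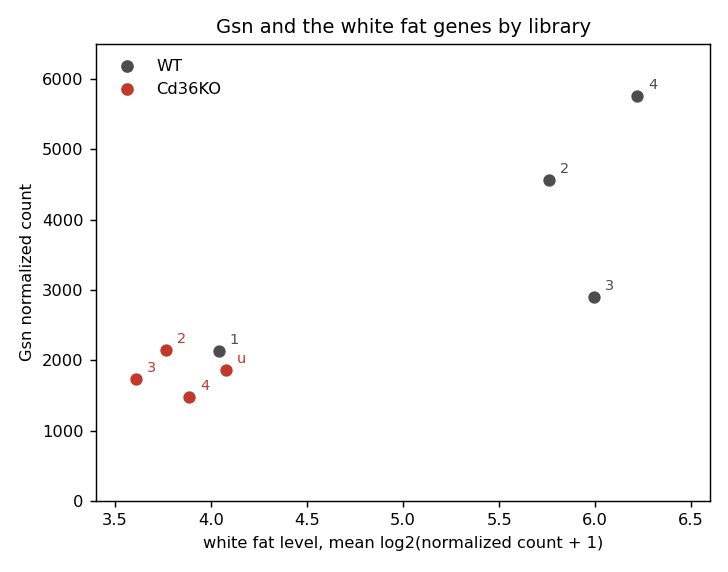
Gsn normalized count (vertical axis, from 0) against the white fat level, the mean log2(normalized count + 1) of 12 genes (horizontal axis), with 1 point per library, WT in grey and Cd36KO in red, and u for the unnumbered library. WT replicate 1, at a white fat level of 4.04, lies within the Cd36KO range of 3.61 to 4.08, and WT replicates 2, 3 and 4 sit apart at levels from 5.76 to 6.22 and Gsn counts from 2893 to 5754.

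As a group the markers gave different answers by level and by sum. For all 10 together the level was 6.27, 6.54, 6.32 and 5.90 in WT replicates 1 to 4, against 6.14 in the unnumbered Cd36KO library and 6.23, 6.13 and 6.11 in replicates 2 to 4. The means were 6.26 ± 0.26 and 6.15 ± 0.05 (n = 4 each, SD), a difference of -0.11, and the Cd36KO libraries lay close together and inside the WT range. The summed normalized counts, in which Gsn holds the larger part, were 4725 ± 1534 in WT and 2719 ± 237 in Cd36KO (n = 4 each, SD), with separate ranges of 3111 to 6436 and 2424 to 3003. Without Gsn, a gene left out here after its values were seen, the sums were 890 ± 143 and 918 ± 66.6 and the levels 5.64 ± 0.32 and 5.63 ± 0.04. For the 5 better-covered markers, Pi16, Cd34, Ly6a, Ly6c1 and Clec3b, chosen in the same way, the level was 7.09 ± 0.24 in WT and 7.12 ± 0.08 in Cd36KO.

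The markers did not move as a unit across libraries either. Over the 45 pairs of markers the median Pearson r of log2(normalized count + 1) across the 8 libraries was 0.17, with a range from -0.91 to 0.78, and 29 pairs were positive. The highest was between Pi16 and Cd248, at 0.78, both genes of the interstitial progenitors. Pdgfra and Cd34 had an r of 0.60. Gsn had an r of 0.41 with Clec3b and of -0.63 with Ly6c1 and -0.62 with Pdgfrb. These values describe 8 libraries that share their scaling and fall into 2 genotypes, and 4 of the markers, Pdgfra, Pdgfrb, Cd248 and Dpp4, rest on at most 81 reads in a library.

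The genes whose pattern was most like that of Pdgfra were looked up as a description. Among 5522 genes that are not markers and averaged 50 or more normalized counts, Ccdc191, Eea1, Smchd1 and Adhfe1 had the highest Pearson r with it over the 8 libraries, from 0.95 to 0.96. Eea1 codes for a tether of early endosomes and Smchd1 for a chromatin protein of the inactive X chromosome. Genes at lower counts, Sema3c and other progenitor genes among them, were not ranked. These are the extremes of 5522 genes ranked over 8 points and were not tested, and none of the 4 passed the threshold between genotypes.

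Other genes of the same cells, outside the marker list, were counted next. Of 35 other progenitor and stromal genes, 23 had an adjusted p, and edgeR called 0. In DESeq2 3 of the 23 fell and 0 rose, beside 1.53% and 1.42% of all genes with an adjusted p. Of the 35 genes 24 had a log2 fold change below 0, beside 50.8% of all genes with an adjusted p, and the median was -0.40. By library their level was 4.71, 4.78, 4.74 and 4.51 in WT and 4.31, 4.41, 4.23 and 4.18 in Cd36KO, so that all 4 Cd36KO libraries were below all 4 WT libraries. This level weighs each gene equally, and the summed normalized counts of the 35 genes were close, at 3166 ± 293 in WT and 3071 ± 248 in Cd36KO (n = 4 each, SD), with overlapping ranges of 2780 to 3491 and 2920 to 3439. By list, the mean sums were 236 in WT and 153 in Cd36KO for the interstitial progenitor genes, 1311 and 1210 for the committed preadipocyte genes, 62.9 and 45.5 for the CD142+ genes and 1556 and 1662 for the general stromal genes. The ranges of the 2 groups overlapped in each of these 4 lists. In 6 of the 23 genes with an adjusted p the groups were separate in this direction, beside the 3.93% of all genes given above. When single libraries were left out, in 8 fits, Sema3c, Steap4 and Prrx1 had negative log2 fold changes and unadjusted DESeq2 p under 0.05 throughout, with log2 fold changes from -2.75 to -1.87, from -1.80 to -1.11 and from -1.15 to -0.90. DESeq2 gave Sema3c an adjusted p in 3 of these fits, and Steap4 and Prrx1 in 4 each, and called them in 1, 2 and 1. Without WT replicate 2, WT replicate 4, Cd36KO replicate 2 or Cd36KO replicate 3 none of them had an adjusted p, so the absence of a call there is not a test of the gene.

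Sema3c, a secreted semaphorin of DPP4+ interstitial progenitors, had 28.0, 31.4, 16.5 and 12.9 normalized counts in WT and 3.34, 4.60, 10.2 and 2.29 in Cd36KO. Every Cd36KO library was under every WT library, and the log2 fold change was -2.15 ± 0.59 (SE; DESeq2 adjusted p = 0.0196). It was the 1 gene that fell of the 10 in its list, where 5 had an adjusted p, and the list's median was -0.89 over all 10 and -1.08 over those 5. Igfbp6 and Creb5 of the same list, named after their values were seen, also had separate groups but adjusted p of 0.0891 and 0.133.

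Prrx1, a homeobox factor of mesenchymal progenitors, fell from 47.8, 68.8, 75.3 and 53.4 normalized counts in WT to 32.3, 39.1, 25.6 and 25.2 in Cd36KO. The groups were separate, with a log2 fold change of -1.01 ± 0.30 (SE; DESeq2 adjusted p = 0.0320). It was the 1 gene called of 12 general stromal genes, whose median was -0.53 over all 12 and -0.28 over the 9 with an adjusted p.

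Among 9 committed preadipocyte genes 1 fell, Steap4, a metalloreductase, from 69.1 ± 17.1 to 27.0 ± 15.0 normalized counts (n = 4 each, SD). Its log2 fold change was -1.34 (DESeq2 adjusted p = 0.0282). WT replicate 1, at 44.2, was just below Cd36KO replicate 4, at 48.0. The median of this list was 0.09 over all 9 and 0.02 over the 7 with an adjusted p. Of the 4 genes of CD142+ regulatory cells none was called by DESeq2 or edgeR. None had an unadjusted DESeq2 p under 0.05, and 1, Fmo2, had an unadjusted edgeR p under 0.05. Fmo2 had 25.7 to 38.8 normalized counts in WT and 18.9 to 24.4 in Cd36KO (log2 fold change -0.61, DESeq2 adjusted p = 0.375), and Gdf10 averaged 13.4 ± 4.80 and 9.73 ± 4.98 (n = 4 each, SD; log2 fold change -0.43).

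Matrix genes, which these cells and others in the tissue make, were then set beside the markers. Of 67 matrix genes 59 had an adjusted p, and 5 fell and 1 rose in DESeq2, beside 1.53% and 1.42% of all genes with an adjusted p. The median log2 fold change was -0.31, with 51 of 67 below 0, beside 50.8% of all genes with an adjusted p. The list was drawn up with earlier results of these data known and is not independent evidence of its direction. Their level was 6.22, 6.32, 6.33 and 5.99 in WT replicates 1 to 4 and 6.01, 5.91, 5.86 and 5.80 in the Cd36KO libraries. WT replicate 4 was just under the unnumbered Cd36KO library, and the other WT libraries lay above all Cd36KO libraries. The number that fell differed with the test and with the libraries fitted. EdgeR called 1, limma on the deposited log2 values 0 and DESeq2 2 with the white fat level as a covariate, and 3 fell in each of the fits without WT replicate 2, WT replicate 3, Cd36KO replicate 3 or Cd36KO replicate 4. The number was higher, at 8, with a filter of 10 counts in 4 libraries, and 7 in each of the fits without WT replicate 1 or WT replicate 4. Of the 5 genes described next, Dpt, Col1a2 and Nid1 fell in all 8 fits that left out a library, Lama4 in 3 and Col5a3 in 1.

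Dpt and Col1a2 are fibroblast products, and both fell with separate groups. Dpt, dermatopontin, is a collagen-binding protein of the fibroblast matrix. It had 133, 313, 313 and 340 normalized counts in WT and 85.8, 112, 95.1 and 102 in Cd36KO, a log2 fold change of -1.48 ± 0.28 (SE), and it was the 1 matrix gene that passed with edgeR (adjusted p = 0.0394). Col1a2, a chain of fibrillar collagen, had 877, 715, 789 and 448 in WT and 272, 435, 289 and 323 in Cd36KO, a log2 fold change of -1.10 ± 0.23 (SE). Thus WT replicate 4, the lowest WT library for Pdgfra, Cd34 and Ly6c1, was also the lowest for Col1a2 but the highest for Dpt. Col5a3, a minor fibrillar chain, was the third interstitial gene that fell (log2 fold change -0.89, DESeq2 adjusted p = 0.0496), and WT replicate 1, at 105, was below all Cd36KO libraries. The other WT libraries had 234, 269 and 293 normalized counts of Col5a3. Within WT, both Dpt and Col5a3 were lowest in replicate 1 and highest in replicate 4, as was the white fat level. The part of white fat in their counts was not tested.

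Of 13 basement membrane genes 2 fell and 0 rose. Nid1, nidogen, which links laminin to collagen, had 184 to 423 normalized counts in WT and 106 to 154 in Cd36KO (log2 fold change -1.11). Lama4, a laminin chain made by endothelium and adipocytes, had 237 to 409 and 172 to 236 (log2 fold change -0.71). Among 12 genes of matrix assembly and remodelling 0 fell and 1 rose, Plod1, a lysyl hydroxylase of collagen, from 178 ± 28.4 to 274 ± 39.8 (n = 4 each, SD). EdgeR called none of these 3 genes, with adjusted p from 0.0935 to 0.136, nor Col1a2, with an adjusted p of 0.0895.

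**Figure D4:**
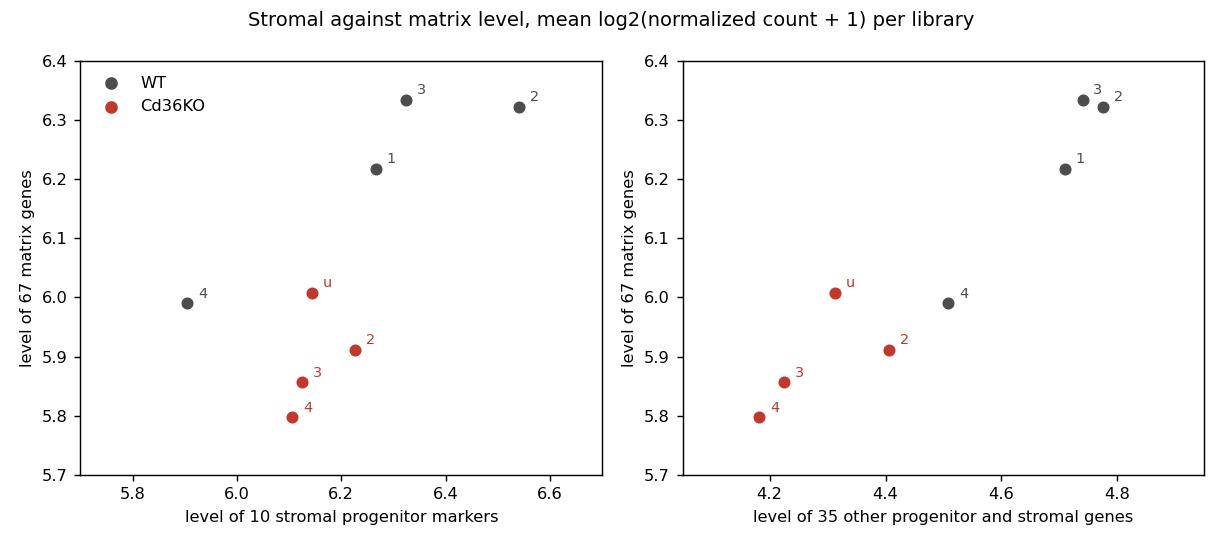
Level of the 67 matrix genes (vertical axes, mean log2(normalized count + 1)) against the level of the 10 markers (left) and of the 35 other progenitor and stromal genes (right), with 1 point per library, WT in grey and Cd36KO in red, and u for the unnumbered library. On the left the Cd36KO libraries, at 6.11 to 6.23, fall inside the WT range of 5.90 to 6.54 while their matrix level is lower than that of 3 WT libraries; on the right all Cd36KO libraries, at 4.18 to 4.41, are left of all WT libraries, at 4.51 to 4.78.

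Set side by side, the group difference was -0.32 in the matrix level, -0.40 in the level of the 35 other progenitor and stromal genes and -0.11 in the level of the 10 markers, with the called genes kept in all 3. By summed normalized counts the order was another, from 4725 to 2719 over the markers, from 18792 to 15366 over the matrix genes and from 3166 to 3071 over the 35 other genes, each from the WT to the Cd36KO mean. Whether the 3 lists differ from each other was not tested. Within WT, replicate 4 was the lowest of the 4 libraries for all 3 levels. With 4 libraries per group and 2 clusters of libraries, no correlation between these levels was tested.

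**Figure D5:**
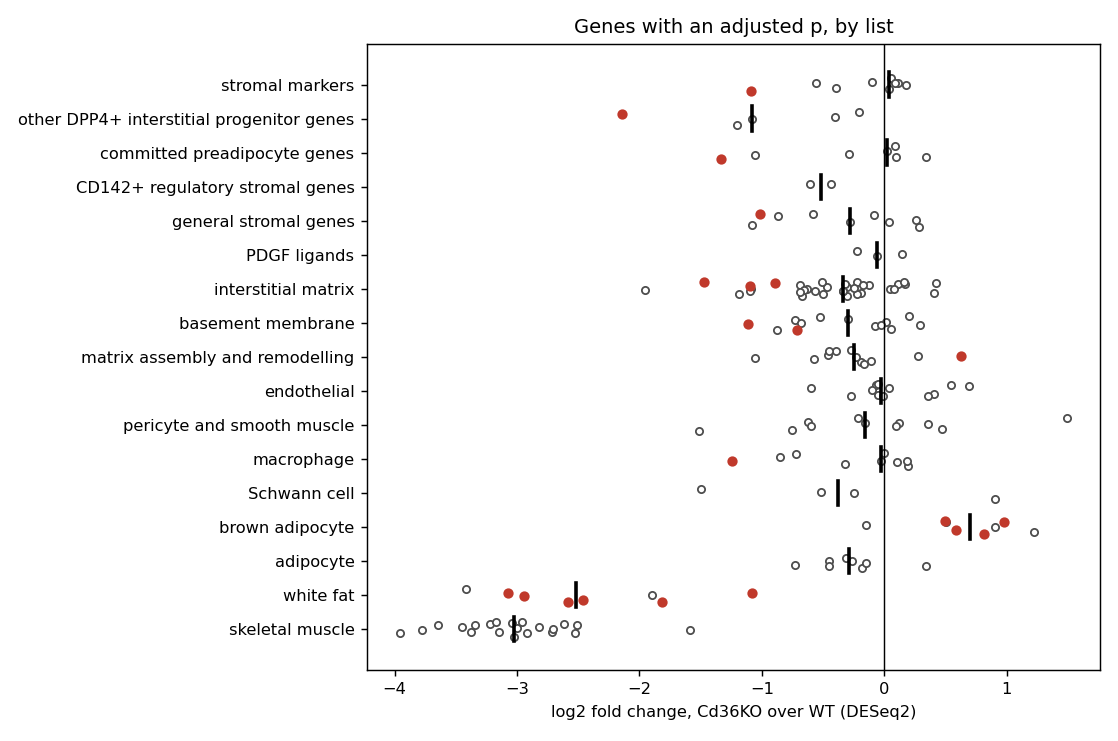
Log2 fold change of Cd36KO over WT (horizontal axis) for each gene with a DESeq2 adjusted p, by list; filled red points passed the threshold of 0.05, open points did not, and the black bar is the median of the points shown. The bar of the stromal markers is at 0.04 and that of the interstitial matrix at -0.34, and the white fat and skeletal muscle lists lie farthest below 0.

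Other cell types that carry some of these markers were measured beside them. Endothelium shares Cd34, Ly6a and Ly6c1, and of 13 endothelial genes 0 were called by DESeq2 or edgeR, with 2 at an unadjusted p under 0.05 in DESeq2 and 3 in edgeR, a median log2 fold change of -0.01 and levels of 6.45 to 6.89 in WT and 6.46 to 6.96 in Cd36KO. Kdr, the vascular endothelial growth factor receptor, had 356 to 565 and 368 to 739 normalized counts. Egfl7 had 264 to 382 and 342 to 720 (log2 fold change 0.69, DESeq2 adjusted p = 0.0630). The part of endothelium in the counts of these 3 markers was not tested.

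Pericytes and smooth muscle share Pdgfrb. Of their 11 genes 0 were called by either tool, 4 had an unadjusted p under 0.05 in DESeq2 and 5 in edgeR, and the median was -0.16. Rgs5, a regulator of G protein signalling in pericytes, had 641 to 1123 normalized counts in WT and 412 to 903 in Cd36KO (log2 fold change -0.22). Acta2, smooth muscle actin, had 65.3 to 224 and 117 to 199 (log2 fold change 0.36). Their level was 6.50 in WT replicate 1, where WT replicates 2 to 4 had 5.76 to 5.98 and Cd36KO libraries 5.89 to 6.05. The same library had the most reads of the 21 skeletal muscle genes, 3.23% of its counts, where the other 7 libraries had 0.0131% to 0.548%. All 21 muscle fold changes were below 0, with a median of -3.02 and 0 called by either tool, though 12 had an unadjusted p under 0.05 in DESeq2 and 17 in edgeR. Ttn, titin, had 305 to 21639 normalized counts in WT and 31.7 to 1246 in Cd36KO, and Acta1, skeletal actin, 155 to 9349 and 12.3 to 1577, so the amount of muscle RNA varied widely within both groups.

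Macrophages, among the cells in which a Csf1r-driven Cre would act, had 1 gene that fell in DESeq2 among 12, Cd163, a scavenger receptor for haemoglobin, with 46.9 to 115 normalized counts in WT and 25.2 to 42.6 in Cd36KO (log2 fold change -1.25, DESeq2 adjusted p = 0.0183). EdgeR called 0 of the 9 it tested, with an adjusted p of 0.110 for Cd163. In each tool 3 genes had an unadjusted p under 0.05, Cd163 and, named after their values were seen, Mrc1 and Mertk, with log2 fold changes of -0.85 and -0.72. The list's median was -0.02.

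Of the 5 Schwann cell genes 0 were called by either tool, with 1 at an unadjusted p under 0.05 in DESeq2 and 3 in edgeR. Pmp22, a myelin protein, had 102 to 200 normalized counts in WT and 83.9 to 182 in Cd36KO (log2 fold change -0.25), and Mbp, another, had 90.9 to 101 and 47.2 to 101 (log2 fold change -0.51). The 9 lymphocyte genes were too low to be judged, since none had a DESeq2 adjusted p or was tested by edgeR. They summed to at most 23.4 normalized counts in a library, with at most 11.1 for Cd3d and 5.75 for Cd4, and Cd79a was at 0. Of the 6 mesothelial genes, whose cells share several fibroblast markers, Msln, Upk3b, Upk1b and Wt1 were at 0 counts in all 8 libraries. DESeq2 gave 2 of the 6 an adjusted p and edgeR tested 1, with 0 called and 0 at an unadjusted p under 0.05 in either. Lrrn4 had 10.8 to 49.4 and 16.7 to 44.2 normalized counts, and Krt19, a keratin, 0 to 52.4 and 1.53 to 50.6.

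The adipocytes' own genes complete the account of the tissue. Of 8 general adipocyte genes 0 were called by DESeq2 or edgeR, with 1, Fabp4, at an unadjusted p under 0.05 in each, and the median was -0.29. Fabp4, a fatty acid binding protein, had 12620 to 21856 normalized counts in WT and 5538 to 12209 in Cd36KO (log2 fold change -0.73, DESeq2 adjusted p = 0.0762). Cfd, or adipsin, had 7736 to 31388 and 9626 to 25765. Among 9 brown adipocyte genes 4 rose and 0 fell in DESeq2, beside 1.42% and 1.53% of all genes with an adjusted p. Those that rose were Cidea, Ucp1, Cox7a1 and Cox8b, and the list median was 0.82. EdgeR called 0 of the 8 it tested, with adjusted p from 0.0749 to 0.196 for these 4. Summed over the 9, the normalized counts were 17268 to 23033 in WT and 31324 to 39997 in Cd36KO. Any effect of this shift on the share of reads left for stromal genes was not tested.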

How the data were processed

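Bulk BAT libraries labelled WT and Cd36KO, 4 of each, were compared, with groups from the sample labels. Per the study's methods, RNA was sequenced as single-end 75-cycle reads in a digital mRNA-seq service, trimmed with bbduk, aligned to mm10 with STAR and counted per gene with HTSeq-count by the authors. The submitters' processing notes name Trimmomatic and HISAT2 instead, with GRCm38 and mm10. Strand, molecular identifiers and annotation release are not given in the sources used here. Without strand, 652 of the 10024 exonic bases of Pdgfra, and up to 3.67% of those of Dpp4, Pi16 and Cd34, cannot be told from overlapping genes.

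The deposited values used were counts per gene, whole numbers with no normalization. A second deposited table holds log2 values, which equalled log2 of the count over a median-of-ratios size factor plus 1 and were used for an alternative only. Of 31053 identifiers, 31011 matched GENCODE M21 (GRCm38), the source of names, 1-based coordinates and Ly6c sequences. No table of protein sequences was used here.

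DESeq2 1.42.0 (Wald test, genotype as the only term, default filtering), the tool the study names, gave the main result, with Benjamini-Hochberg adjustment over all genes and a threshold of 0.05. Alternatives were edgeR 4.0.16 (quasi-likelihood, TMM, filterByExpr), limma 3.58.1, other filters and scaling, covariates, a block, and each library left out. Exact two-sided permutation tests ran over 70 arrangements on log2(normalized count + 1), a pseudocount of 1. Functions were tested on simulated counts in which 200 genes were changed 3-fold. At the threshold of 0.05 DESeq2 recovered 96% of these genes and edgeR 95.5%. Of the calls, 10.28% were false with DESeq2 and 6.83% with edgeR. Counting intervals are not given. The floor of 3 counts covers counting error only. Total counts per library, 2679785 to 4097953, set the precision.

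The 10 markers and the 19 gene lists were chosen with earlier results of these data known. Named are all markers, in each other list up to 5 genes past the threshold or else the 2 with the most counts, Cd36, sex-linked genes, Ly6 copies and the 5 genes most like Pdgfra, 1 of which is not reported here. Others are said to be chosen after their values were seen.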

Additional observations from a re-analysis of the deposited data

Results flagged for a closer look

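Each marker, the level of the 10 markers and the level of the matrix genes were checked for a library far from the other 3 of its group, 24 groups in all, of which chance would flag about 1.2. A single one was found, Cd34 in Cd36KO. Replicate 4 had a log2(normalized count + 1) of 6.61, against 7.19 to 7.30 in the other 3 Cd36KO libraries. The WT library with the same number was also the lowest of its group for Cd34, at 86.1 normalized counts.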

How the results depend on the processing

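Gsn was the 1 marker called lower, and 0 were called higher, in all settings but 3. The count of lower markers was 0 with edgeR, with limma on the deposited log2 values and with the white fat level as a covariate. The log2 fold change of Gsn was -1.10, -0.998 and -0.15 in these 3, with adjusted p of 0.113, 0.260 and 0.811, and over the 16 alternatives the adjusted p lay between 6.22e-07 and 0.811. The number of matrix genes called lower, 5, was 1 with edgeR, 8 with a filter of 10 counts in 4 libraries, 3 with independent filtering off, 2 with the white fat level and 0 with limma. Of the 35 other progenitor genes, 3 were lower, against 0 with edgeR, limma or the skeletal muscle level as a covariate, 1 with the white fat level or the replicate block, and 0 to 2 with a library left out, settings added after seeing the data. In 4 of those 8 fits none of the 3 genes had an adjusted p, as 4420 to 5719 genes had one there against 9617, so these counts of 0 are not lost calls. Sema3c had none with either covariate. Without the unnumbered Cd36KO library the 1 gene called lower was none of these 3. There Sema3c, Steap4 and Prrx1 had DESeq2 adjusted p of 0.0980, 0.134 and 0.106. In that limma fit 1391 genes had an unadjusted p under 0.05 and 1 passed.

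Leaving out each library in turn gave 3 to 7 such genes, with 3 in the fits without WT replicate 2, WT replicate 3, Cd36KO replicate 3 or Cd36KO replicate 4. It gave a matrix median log2 fold change from -0.46, without WT replicate 4, to -0.28, against -0.31, and -0.44 without the unnumbered Cd36KO library. The marker median of 0.05 lay between -0.11 and 0.11 in these fits. It was -0.19 with the white fat level, a fit that moved the median of all genes to 0.11. The added medians without Gsn, without Dpp4, or over the 5 better-covered markers, chosen after seeing the data, were 0.04 to 0.05.

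Signs and sizes of markers that were not called also changed. In the fits without 1 library the log2 fold change ran from -0.93 to -0.32 for Pdgfra, -0.55 to -0.080 for Pi16, -0.30 to 0.56 for Pdgfrb, -0.11 to 0.19 for Cd34, -0.048 to 0.24 for Ly6c1, -0.085 to 0.38 for Cd248 and -0.17 to 0.22 for Clec3b. With the white fat level it was -1.06 for Pdgfra, -1.25 for Pdgfrb, 0.93 for Clec3b, 0.46 for Cd248, 0.029 for Pi16, -0.29 for Cd34, -0.22 for Ly6a and -0.23 for Ly6c1, with the skeletal muscle level -1.04 for Pdgfra, 0.38 for Pdgfrb and -0.13 for Clec3b, and with limma 0.12 for Pdgfrb. The cause of these changes was not tested.

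Same-numbered libraries deviated from their group means with correlations of -0.13, 0.42 and 0.14 over 3 pairs, so the numbers were not taken as pairs. With the replicate block 221 genes were called, against 262 in the same 6 libraries without it, with Gsn lower in both and 5 matrix genes lower against 7, and the log2 fold change was 0.60 for Pdgfrb, -0.039 for Cd248 and -0.18 for Clec3b. Depth limits Dpp4, with at most 3 reads, and Pdgfra, Pdgfrb and Cd248, with 12 to 81.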
